A study of Mus musculus with 4 samples.

Results

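The HSP70 family was examined in lenses of newborn mice that lacked Hsf4, the gene of heat shock transcription factor 4, against wild-type lenses. The family was taken as 10 genes, Hspa1a, Hspa1b, Hspa1l, Hspa2, Hspa4, Hspa4l, Hspa8, Hspa9, Hspa14 and Hsph1. Every array probe set whose platform annotation named exactly 1 of these genes was a member, which gave 29 of the 45101 probe sets on the array. All 10 genes had at least 1 probe set, and the choice used no measured value. RNA of lenses from HSF4 knockout mice (2 arrays, numbered 1 and 2) was set against RNA of lenses from wildtype mice (2 arrays, numbered 1 and 2). Both groups were of the 129S3 background, labelled male and 0.5 days old, and all lenses were kept in an RNA-stabilising solution before freezing. The sources used here do not state the deleted part of Hsf4, the animals behind each sample or any pooling of lenses.

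Proteins of the HSP70 family are ATP-driven chaperones that bind exposed hydrophobic stretches of unfolded or newly made proteins and release them for folding. J proteins bring substrates and stimulate the ATPase, and nucleotide exchange factors, among them the larger HSP110 relatives, reset the cycle. Inducible members are classical targets of heat shock factors, which bind heat shock elements in promoters, while constitutive members are present in unstressed cells. Lens fibre cells lose their organelles and keep their proteins for life, so chaperones have long been studied in this tissue.

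The promoters of the family are shown first, searched for exact words of the heat shock element. RefSeq promoter windows (GRCm38.p6, 250 bases before to 50 after an annotated start) were searched for 8 of the 10 genes. No window was available for Hspa8, and Hspa9 was left out of the search. The short word of a heat shock element, GAANNTTC or TTCNNGAA, reads the same on both strands and was present in windows of 3 of these 8 genes, Hspa1a, Hspa1b and Hsph1. Of all 27025 genes with a window in the table, 17% held it. A longer word, made by adding to the short word a further alternating GAA or TTC unit after NN and searched on both strands, contains the short word. It was found in Hsph1 and in no other family window, against 0.662% of all genes. The windows of the 3 genes are printed from 5′ to 3′ with the short words in capitals.
Hspa1b, chr17:34959189-34959488, minus strand: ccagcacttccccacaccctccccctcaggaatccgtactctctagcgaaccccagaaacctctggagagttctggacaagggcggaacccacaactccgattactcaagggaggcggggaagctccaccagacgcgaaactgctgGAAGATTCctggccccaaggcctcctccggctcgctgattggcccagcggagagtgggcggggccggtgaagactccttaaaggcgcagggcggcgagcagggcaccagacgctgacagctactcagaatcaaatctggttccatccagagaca
Hspa1a, chr17:34972107-34972406, minus strand: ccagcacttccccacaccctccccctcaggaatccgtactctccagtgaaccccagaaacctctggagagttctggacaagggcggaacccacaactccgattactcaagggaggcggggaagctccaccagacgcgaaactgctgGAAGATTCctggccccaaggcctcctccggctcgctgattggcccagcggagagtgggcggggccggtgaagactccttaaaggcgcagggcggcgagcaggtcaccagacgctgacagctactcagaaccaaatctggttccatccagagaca
Hsph1, chr5:149636266-149636565, minus strand: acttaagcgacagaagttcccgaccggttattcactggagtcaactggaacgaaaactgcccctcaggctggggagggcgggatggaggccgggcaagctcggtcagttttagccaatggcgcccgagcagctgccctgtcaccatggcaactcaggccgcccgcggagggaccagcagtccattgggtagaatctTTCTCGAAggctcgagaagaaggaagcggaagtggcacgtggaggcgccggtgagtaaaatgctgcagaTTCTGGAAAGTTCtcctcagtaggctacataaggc
The Hspa1b and Hspa1a windows were identical at 296 of 300 bases, and in both the word began 104 bases before the start. In Hsph1, which has 2 annotated starts 21 bases apart, the window of the more 3′ start held 3 short words, and the last 2 of them overlap to form the long word. The window of Hspa4l, whose values are described below with those of Hsph1, held no short word and is shown beside them.
Hspa4l, chr3:40745363-40745662, plus strand: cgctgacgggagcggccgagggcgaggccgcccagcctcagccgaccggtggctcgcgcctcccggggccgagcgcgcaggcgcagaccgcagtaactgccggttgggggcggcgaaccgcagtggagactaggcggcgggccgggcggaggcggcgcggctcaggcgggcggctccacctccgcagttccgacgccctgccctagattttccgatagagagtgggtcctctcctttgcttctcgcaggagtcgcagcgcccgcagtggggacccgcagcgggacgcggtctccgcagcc
A match describes letters in a window and not a bound site. Inexact words and bases outside a window were not searched, so a window without a match does not show that a gene lacks the element.

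**Figure D1:**
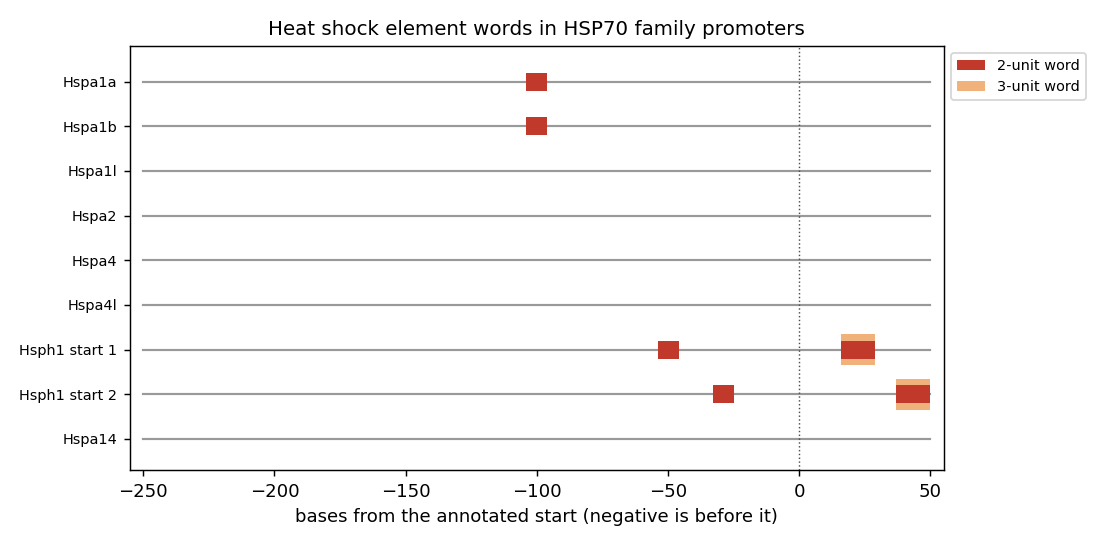
Positions of heat shock element words in the RefSeq promoter windows of 8 HSP70 family genes; the x axis gives bases from the annotated start, red boxes are short words of 2 units and orange boxes long words of 3 units. Hspa1a and Hspa1b hold 1 short word each at the same place, both Hsph1 starts hold 3 short words and 1 long word, and the other windows hold none.

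The labels were checked before the family was read. The only probe set named for Hsf4 measured 1212 and 413 on the arrays labelled knockout 1 and 2, against 505 and 138 for wild type 1 and 2. Its values were thus not reduced in knockout (log2 change 1.36, SE 0.60, unadjusted p = 0.0486 and adjusted p = 1 in limma), and since its place relative to the deletion is not known, it checks nothing. All directions here refer to the arrays as labelled. Xist, the RNA of the inactive X chromosome, measured 260 on knockout 1 and 9.01 on knockout 2, against 605 on wild type 1 and 58.0 on wild type 2, so its level went against the male label for the number 1 arrays. The Y-linked gene Eif2s3y measured 101 and 161 in knockout, against 60.4 and 208 in wild type, and Kdm5d 41.6 and 43.2 against 22.2 and 54.1, so Y-linked RNA was measured on all 4 arrays. Of the 16 lens markers, 15 had a probe set, with summed intensities of 81008 and 78218 in knockout, against 82034 and 77304 in wild type. Most of the crystallins among them lay near the top of every array, where quantile normalization gives equal ranks equal values. The sums were thus set in large part by the normalization and do not check lens content. Among the lens markers, Bfsp1, a beaded filament gene of fibre cells, measured 2186 and 2060 against 5220 and 3785 (log2 change -1.06, adjusted p = 0.434 in limma). Its partner Bfsp2 measured 60.1 and 2907 against 180 and 268. Of 9 markers of striated muscle, 9 were lower on both arrays labelled knockout, with summed intensities of 123 and 120 there against 2632 and 1360 on the wild-type arrays. With 1 probe set a gene, 3 of the 9 had an adjusted p under 0.05 in limma. Over all 11595 genes tested, 3 had this with knockout lower. None of the 9 markers was at 0, and Tnnt3 measured 1.97 and 0.756 against 73.4 and 72.0. The 8 fibroblast and pericyte markers summed to 1505 and 1168 against 1992 and 2334, with 7 lower within both numbers and a list median of -1.31 on the log2 scale. Rgs5 made up the largest share of that sum on knockout 1, at 1090 and 516 in knockout against 824 and 666 in wild type, and Col1a1 measured 13.7 and 21.5 against 116 and 92.1. Summed intensities of the 5 neural retina markers were 1485 and 455 in knockout, against 1313 and 1372 in wild type, and those of 4 erythroid genes were 114 and 483 against 76.6 and 132. The 18S ribosomal RNA control of the 3′ region measured 10.6 and 3228 in knockout, against 12.8 and 349 in wild type, and that of the 5′ region 14.3 and 7309 against 1.52 and 6898. Both number 2 arrays were thus far above both number 1 arrays on these controls. The part of these differences in the values below was not tested, and in whole-tissue RNA fewer cells of a type and less RNA per cell cannot be told apart.

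Intensities below are quantile normalized, one value per probe set and array in the order 1, 2 of each group. A log2 change is the mean over knockout arrays minus the mean over wild-type arrays of log2(intensity + 16), which understates the change of dim probe sets, and SE is its standard error. Levels of different probe sets are not compared with each other, because probes differ in how strongly they bind. Probe sets were tested where their mean log2 value over the 4 arrays reached the median of all, an intensity of about 13.0. That left 23 of the 29 family probe sets from 8 genes, and 6 probe sets fell below it, among them the only ones of Hspa1a and Hspa1l. Replicates are the 2 arrays of a group. Separate animals are not stated for them, so the p-values rest on a spread that may be technical. An exact permutation test of 2 arrays against 2 cannot go below a two-sided p of 0.333.

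No family member passed the test. Of the 23 probe sets, 0 reached an adjusted p of 0.05 in limma, where 0.0178% of the 22519 probe sets tested did (4 in all). At an unadjusted p under 0.05 the family count was also 0, against 2.33% of all, and the lowest unadjusted p in the family was 0.113. Log2 changes of the 23 ran from -0.54 to 0.28, and none reached a size of 1 on this scale, against 0.986% of all probe sets tested. Each of the 23 intervals (95%, from the limma fit) included 0, with bounds down to -1.28 and up to 1.11. For 12 of the 23 the interval lay inside -1 to 1 on the log2(intensity + 16) scale, where a 2-fold difference of a dim probe set is smaller than 1.

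**Figure D2:**
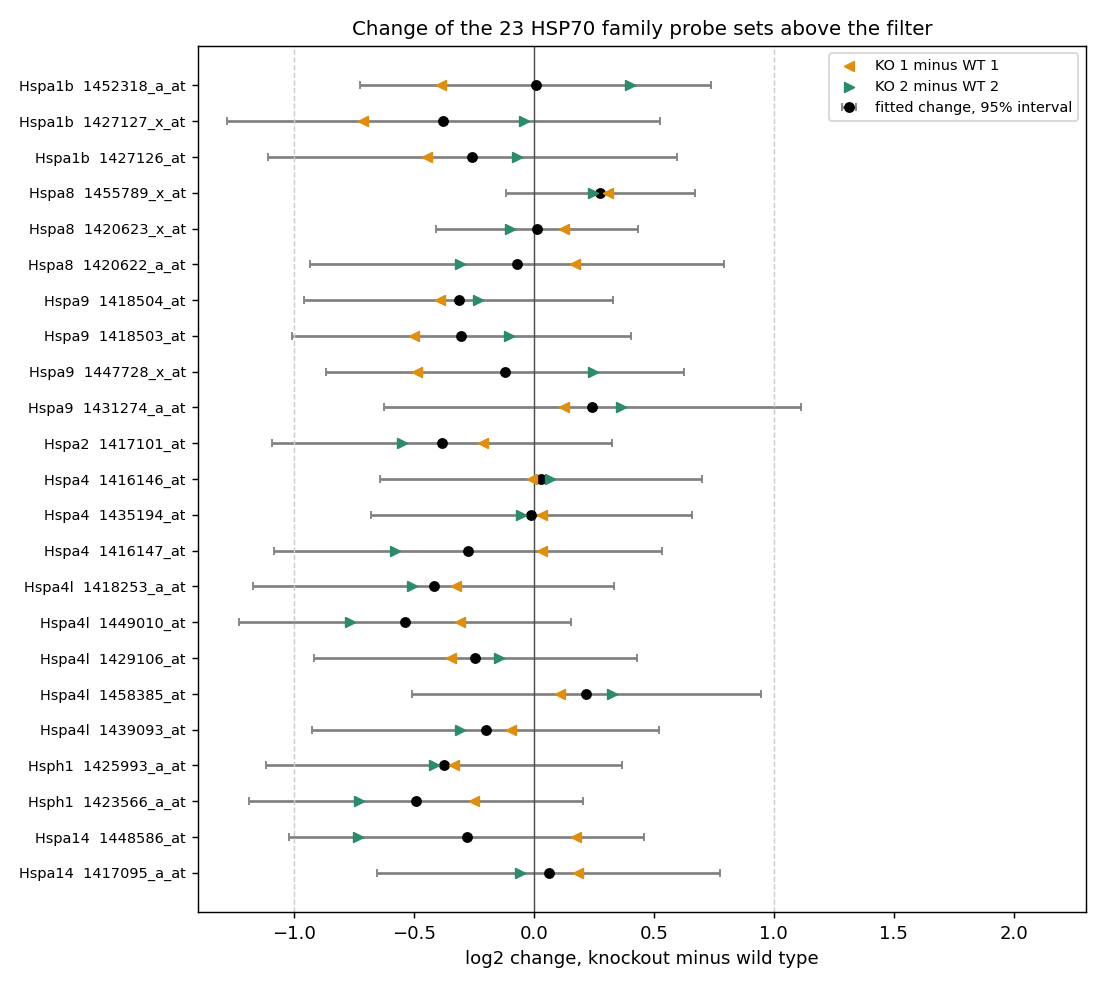
Log2 change (knockout minus wild type, x axis) of each of the 23 HSP70 family probe sets above the filter, with its 95% interval (black point and grey bar) and the change within array numbers 1 and 2 (triangles); dashed lines mark -1 and 1. All 23 bars cross 0, and 16 points lie left of it.

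Most probe sets had values on the lower side in the arrays labelled knockout. The log2 change was below 0 for 16 of the 23, or 69.6%, against 51.2% of all probe sets tested. Within both numbers, 11 of the 23 were lower, 47.8%, against 27.4% of all, and 3 were higher, 13%, against 25.9% of all. The remaining 9 had opposite directions in the 2 numbers. Groups did not overlap, with knockout lower, for 5 of the 23 (14.4% of all probe sets), and with knockout higher for 1 (12.6% of all). In all, 6 of the 23 had groups that did not overlap, or 26.1%, against 27% of all. The median log2 change was -0.24 over the 23 and -0.20 over all 29, against -0.01 over all probe sets tested. Within number 1 the family median was -0.21 and within number 2 it was -0.10. As deposited and with median centring, the median of all tested probe sets moved to -0.42 and -0.25. Relative to it the family median was -0.18 in both settings. Median centring only subtracts a constant per array from the log2 of the deposited values plus 16, so this is 1 result. With those medians, most of all tested probe sets counted as lower. In the family, lower values were counted for 24 of 24 probe sets as deposited and for 21 of 24 with median centring. These counts describe a chosen list whose probe sets often share a gene, and no test of the list was made.

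**Figure D3:**
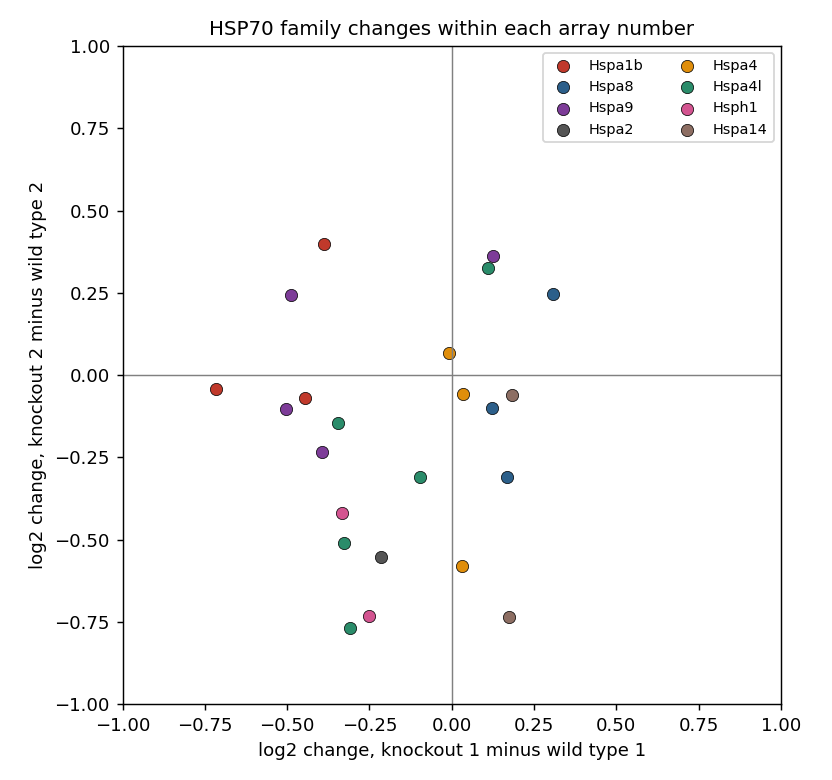
Log2 change of the 23 HSP70 family probe sets within array number 1 (knockout 1 minus wild type 1, x axis) and within array number 2 (knockout 2 minus wild type 2, y axis), coloured by gene. In the lower left corner lie 11 points, with both Hsph1 probe sets and 4 of 5 for Hspa4l, and 3 lie in the upper right.

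The stress-inducible genes Hspa1a and Hspa1b encode the classical heat-induced HSP70 and are neighbours with Hspa1l. Their coding sequences are nearly identical, so probe sets named for one may also bind RNA of the other, and the genes are read together. The Hspa1b probe set 1452318_a_at measured 33.4 and 47.1 in knockout, against 48.6 and 31.8 in wild type. The groups crossed, with one array of each group near the top and one near the bottom, and the log2 change was 0.01 (SE 0.33, adjusted p = 1). For 1427127_x_at the values were 14.7 and 8.47 in knockout and 34.4 and 9.17 in wild type, and wild type 1 was the highest array. The last Hspa1b probe set, 1427126_at, measured 15.0 and 7.61 in knockout, against 26.2 and 8.78 in wild type. Wild type 1 was again highest, and the log2 changes of these 2 probe sets were -0.38 (SE 0.40) and -0.26 (SE 0.38). Without wild type 2 they were -0.93 and -0.69, without knockout 2 they were -0.24 and -0.069, and without wild type 1 both fell below the filter. Within number 1 all 3 Hspa1b probe sets were lower in knockout, by -0.39, -0.72 and -0.45 on the log2 scale. Within number 2 the changes were 0.40, -0.04 and -0.07. The Hspa1a probe set 1452388_at fell below the filter and was not tested, with 12.9 and 1.46 in knockout and 24.2 and 11.3 in wild type. Its groups overlapped, since knockout 1 lay above wild type 2.

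Hspa8 encodes the constitutive HSC70, which folds new proteins, strips clathrin from coated vesicles and delivers proteins to lysosomes. Its probe set 1455789_x_at measured 4270 and 4313 in knockout, against 3446 and 3636 in wild type, a mean of 4292 ± 30.4 against 3541 ± 134 (SD, n = 2 each). Both knockout arrays lay above both wild-type arrays, the only such case among the tested family probe sets, and the log2 change was 0.28 (SE 0.18, 95% interval -0.12 to 0.67, adjusted p = 1). It was 0.52 with trimmed mean scaling and -0.10 with values as deposited, or 0.32 relative to the median of all probe sets as deposited. Probe set 1420623_x_at measured 3529 and 3085 in knockout and 3238 and 3311 in wild type. Here the knockout arrays lay on either side of the wild-type pair, and the log2 change was 0.01 (SE 0.19). For 1420622_a_at the values were 1807 and 798 in knockout, against 1605 and 993 in wild type, with a log2 change of -0.07 (SE 0.38). On this probe set both number 1 arrays lay above both number 2 arrays, whichever the genotype. Without knockout array 2 its change was 0.50, and without knockout array 1 it was -0.66, so single arrays set its value. The last Hspa8 probe set, 1431182_at, was below the filter, at 4.37 and 0.488 in knockout and 12.9 and 15.4 in wild type, and was not tested. The 3 tested probe sets of Hspa8 therefore gave no common direction.

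Hspa9 encodes mortalin, the HSP70 of the mitochondrial matrix, which pulls imported proteins through the inner membrane and helps to build iron-sulphur clusters. Its probe set 1418504_at measured 312 and 402 in knockout, against 415 and 475 in wild type. The groups did not overlap, though knockout 2 and wild type 1 lay close, and the log2 change was -0.31 (SE 0.29, adjusted p = 1). Probe set 1418503_at measured 164 and 246 in knockout and 239 and 266 in wild type, with a log2 change of -0.30 (SE 0.31) and overlapping groups. Without knockout 1 the change of 1418503_at was -0.032 and that of 1418504_at was -0.14, and without knockout 2 they were -0.58 and -0.49. For 1447728_x_at the values were 40.0 and 71.3 in knockout, against 62.5 and 57.7 in wild type, a log2 change of -0.12 with the knockout arrays at both ends. Probe set 1431274_a_at measured 23.1 and 54.5 in knockout and 19.9 and 38.9 in wild type, a log2 change of 0.24, and both number 2 arrays lay above both number 1 arrays. The other probe set, 1453811_at, lay below the filter. The 4 tested probe sets had a median change of -0.44 within number 1 and 0.07 within number 2.

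The germ cell members are known chiefly from testis. Hspa2, needed for meiosis in male mice, measured 32.8 and 21.4 in knockout, against 40.7 and 38.8 in wild type (probe set 1417101_at). Both knockout arrays lay below both wild-type arrays, and the log2 change was -0.38 (SE 0.31, 95% interval -1.09 to 0.32, adjusted p = 1). Within number 1 the change was -0.21 and within number 2 it was -0.55, and without knockout 2 it was also -0.21. Hspa1l was near the bottom of the scale on every array, at 2.60 and 0.756 in knockout and 1.31 and 0.223 in wild type (1419625_at), and was not tested.

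The HSP110 relatives Hspa4, Hspa4l and Hsph1 act as nucleotide exchange factors of HSP70 and can hold unfolded proteins themselves. Of their 10 tested probe sets, 8 had changes below 0, against 51.2% of all probe sets tested. Of these, 6 were lower within both numbers at once, against 27.4% of all, and the median of the 10 was -0.26. Hspa4l alone gave 5 of the 10, so they are not independent. Hspa4l and Hsph1, both known as stress-responsive genes, held the 3 lowest changes among the 23 tested probe sets of the family, while 2 of the 3 tested Hspa4 probe sets were close to 0.

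For Hspa4l, probe set 1449010_at measured 99.7 and 75.0 in knockout, against 127 and 139 in wild type. Both knockout arrays lay below both wild-type arrays, and the log2 change of -0.54 (SE 0.31, 95% interval -1.23 to 0.15, adjusted p = 1) was the lowest among the 23 tested probe sets of the family. It was -0.31 within number 1 and -0.77 within number 2. For 1418253_a_at the values were 115 and 156 in knockout and 148 and 229 in wild type. Knockout 2 lay just above wild type 1, so the groups overlapped, with a log2 change of -0.42 (SE 0.33). That change was -0.22 without knockout 1 and -0.13 without wild type 2, and -0.70 without wild type 1. Probe set 1429106_at measured 38.8 and 46.2 in knockout, against 53.5 and 52.8 in wild type, which did not overlap, with a log2 change of -0.24, or -0.14 without knockout 1. Probe set 1439093_at had -0.20 and overlapping groups. The last, 1458385_at, measured 34.2 and 53.8 in knockout, against 30.6 and 39.6 in wild type, a log2 change of 0.22 in the opposite direction to the other 4. That change was higher in knockout within both numbers, at 0.11 and 0.33, so the probe sets of Hspa4l disagreed.

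Hsph1, the heat-induced HSP110, was measured by 2 probe sets with the same direction. Probe set 1425993_a_at measured 174 and 244 in knockout, against 223 and 332 in wild type, and knockout 2 lay above wild type 1. Its log2 change was -0.38 (SE 0.33, adjusted p = 1), and numbers 1 and 2 gave -0.33 and -0.42. It was -0.15 without knockout 1 and -0.61 without knockout 2, and -0.65 and -0.10 without wild type 1 or 2. Probe set 1423566_a_at measured 66.0 and 61.4 in knockout and 81.6 and 112 in wild type. Here the groups did not overlap, and the log2 change was -0.49 (SE 0.31, 95% interval -1.19 to 0.21, adjusted p = 1). Numbers 1 and 2 gave -0.25 and -0.73. Without wild-type array 2 that change was -0.30. The 5 tested probe sets of Hspa1b and Hsph1, whose windows held a word, ran from -0.49 to 0.01, and the 11 of Hspa2, Hspa4, Hspa4l and Hspa14, whose windows held none, ran from -0.54 to 0.22. Tested probe sets of Hspa8 and Hspa9, for which no window was searched, are in neither range.

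Hspa4, the constitutive HSP110, gave nearly equal values in the groups on 2 of its 3 tested probe sets. Probe set 1416146_at measured 352 and 474 in knockout, against 354 and 452 in wild type, with a log2 change of 0.03 (SE 0.30, 95% interval -0.64 to 0.70). Each knockout array lay close to the wild-type array of the same number. Probe set 1435194_at measured 118 and 122 in knockout and 115 and 128 in wild type, a log2 change of -0.01 (SE 0.30, 95% interval -0.68 to 0.66). For 1416147_at the values were 127 and 63.0 in knockout, against 124 and 102 in wild type. Only knockout 2 stood apart there, with changes of 0.03 within number 1 and -0.58 within number 2, and without that array the change was 0.15 in place of -0.27. The other probe set, 1440575_at, was below the filter.

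Hspa14 encodes a divergent HSP70 that works with a J protein on ribosomes. Its probe set 1448586_at measured 157 and 116 in knockout, against 138 and 203 in wild type, with a log2 change of -0.28 (SE 0.33). It was -0.083 without knockout 2 and -0.023 without wild type 2, and -0.48 and -0.53 without knockout 1 or wild type 1. The groups overlapped and the direction differed between the numbers, at 0.17 and -0.73. Probe set 1417095_a_at had a log2 change of 0.06 (SE 0.32), and 1439826_at was below the filter.

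**Figure D4:**
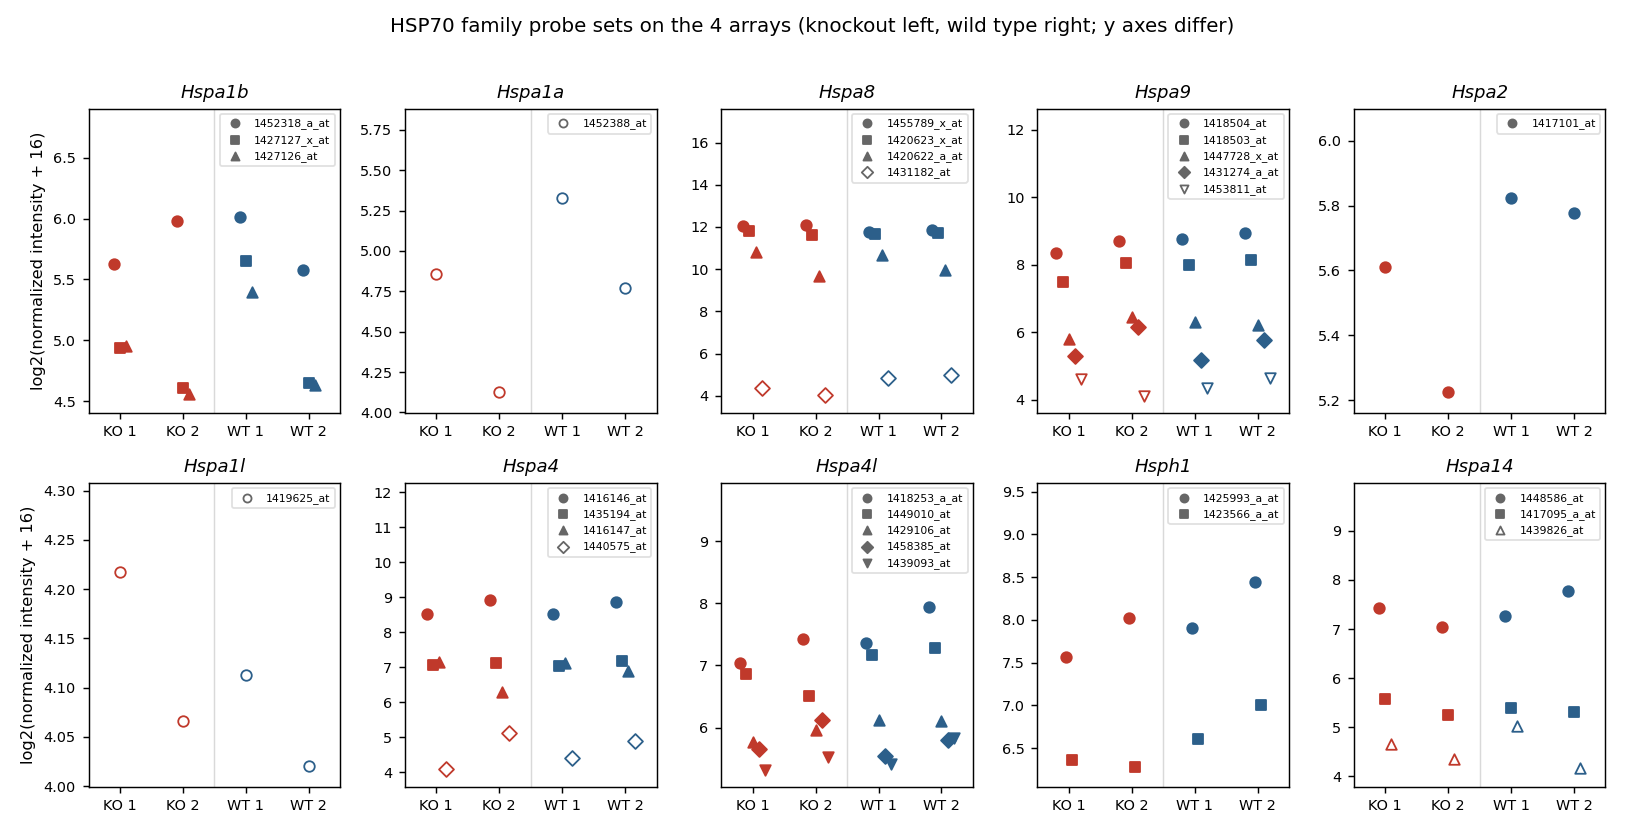
Log2(normalized intensity + 16) of the 29 HSP70 family probe sets on the 4 arrays, one panel per gene with its own y axis, knockout arrays in red on the left and wild-type arrays in blue on the right; marker shapes are probe sets and open markers lie below the filter. Among tested probe sets, groups are apart for 1 of Hspa8 with knockout higher and for 5 of Hspa2, Hspa9, Hspa4l and Hsph1 with knockout lower. Hspa1b and Hspa4 show groups that cross.

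By array, the median deviation of the 23 probe sets from their own means was -0.13 on knockout 1 and -0.01 on knockout 2, against 0.05 on wild type 1 and 0.11 on wild type 2. Over all tested probe sets the same medians were between -0.01 and 0.02. The lowest family median was on knockout 1 and the highest on wild type 2. Without knockout 1 the family median change was -0.14, with 16 of 23 probe sets lower, and without knockout 2 it was -0.20, with 19 of 24 lower. Without wild type 1 it was -0.15, with 16 of 21 lower, and without wild type 2 it was -0.17, with 15 of 23 lower.

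The partners of HSP70 were read from lists of 35 genes, each gene read at the probe set of highest mean, and 32 of them were above the filter. None passed in either direction (0 of 32, against 0.0345% of the 11595 genes tested in limma). Lower values within both numbers were measured for 12 of the 32 and higher values for 7, against 27.5% and 26.1% of all genes. Groups did not overlap for 8 with knockout lower and 2 with knockout higher, against 14.3% and 12.7% of all genes. The median change was -0.03, against -0.01 over all genes.

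J proteins, which deliver substrates to HSP70, held the lowest values. Within both numbers at once, 6 of the 9 had lower values and 1 had higher values, and the median was -0.28. Dnajb2, a J protein that steers clients to the proteasome, measured 125 and 136 in knockout, against 394 and 229 in wild type. Both knockout arrays were lower, with a log2 change of -1.11 (SE 0.33, unadjusted p = 0.00782 and adjusted p = 1 in limma). Dnajb1, the heat-induced partner of the inducible HSP70, measured 288 and 524 in knockout and 661 and 726 in wild type (log2 change -0.81, SE 0.32, adjusted p = 1). Its change was -1.16 within number 1 and -0.46 within number 2.

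Exchange factors other than HSP110 had values near or above those of wild type. Within both numbers at once, 3 of the 8 had higher values and 0 had lower values, and the median was 0.08. Hspbp1, an exchange factor that also restrains the ubiquitin ligase CHIP, measured 90.1 and 132 in knockout, against 79.2 and 79.6 in wild type (log2 change 0.39, SE 0.31, adjusted p = 1). Bag5, a BAG domain protein, had 0.36 and overlapping groups.

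In the list that joins HSP70 to HSP90 and to ubiquitin ligation, 5 of 6 genes were measured, and 2 were lower and 1 higher within both numbers. Hsp90aa1, the inducible HSP90, measured 2318 and 1960 in knockout, against 2907 and 2586 in wild type (log2 change -0.36, SE 0.21, adjusted p = 1), and Stub1, which encodes CHIP, had 0.33. Among 6 mitochondrial partners, 2 were lower and 2 higher within both numbers. Grpel1, the exchange factor of Hspa9, measured 324 and 481 in knockout, against 220 and 324 in wild type. Knockout 1 and wild type 2 were nearly equal, so the groups barely stood apart, and the log2 change was 0.54 (SE 0.33, adjusted p = 1). Hspe1, the mitochondrial HSP10, had -0.22. The HSP70 relatives of other compartments ran from -0.23 for Hspa5, the chaperone BiP of the endoplasmic reticulum, to -0.04 for Hspa13, and Hyou1 had -0.17.

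**Figure D5:**
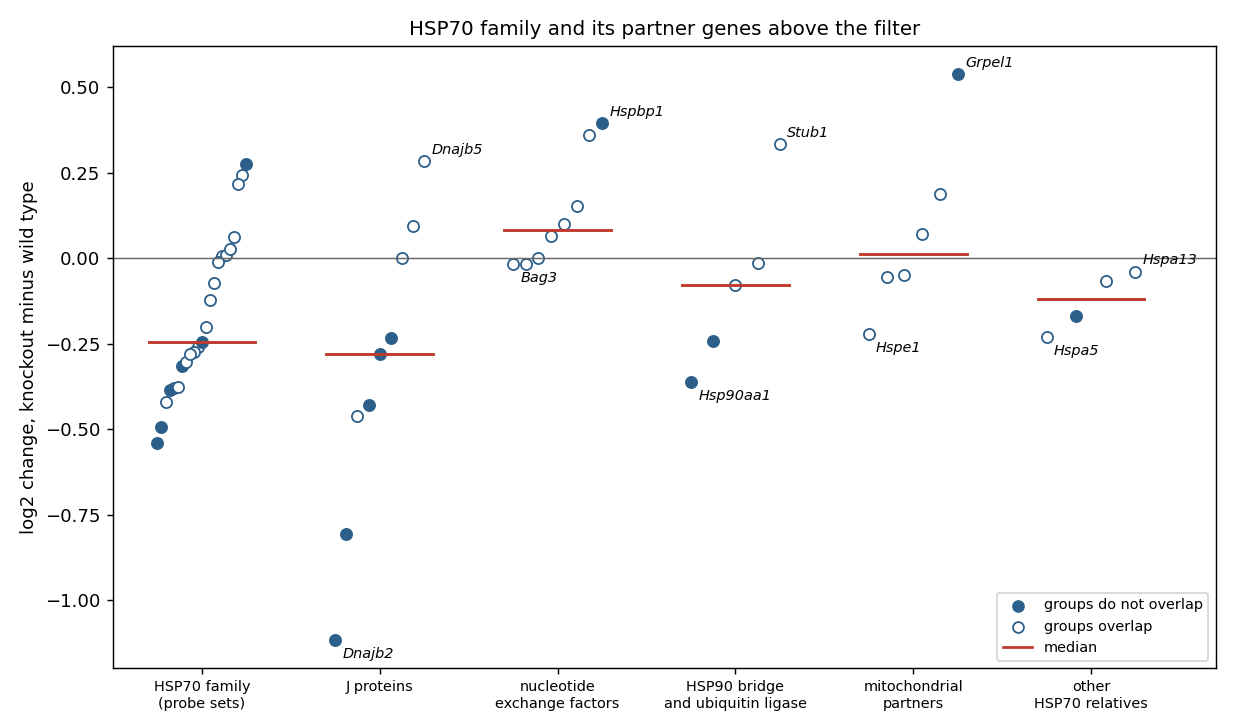
Log2 change (knockout minus wild type, y axis) of the 23 HSP70 family probe sets and of the 32 partner genes above the filter, by list; filled points have groups that do not overlap and red bars are medians. J proteins reach the lowest value, -1.11 for Dnajb2, and Grpel1 has the highest, 0.54.

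The member probe set with the lowest unadjusted p was 1449010_at of Hspa4l, and the genes with the most similar pattern over the 4 arrays were sought among 11594 others. Likeness was the root mean square distance between mean-centred log2 values. Fmr1 was nearest at 0.02, followed by Dut and Mpp3 at 0.03 each. Fmr1 measured 222 and 168 in knockout, against 271 and 290 in wild type. With 4 arrays such likeness is a description only.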

How the data were processed

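RNA of whole newborn mouse lenses was measured on Affymetrix arrays, 1 array per sample. Per the labels' protocols, total RNA was treated with DNase on the column and labelled with biotin. The deposited values are intensities on a linear scale, 1 per probe set and array; the sources used here do not name the software that made them. They were not on one scale, with array medians of 18.5 and 6.58 in knockout and 21.4 and 10.5 in wild type. Depth does not apply to arrays, and their number limits the precision.

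The deposited intensities were quantile normalized (limma 3.58.1, R 4.3.3), 16 was added and log2 taken. The 64 control probe sets were then left out. The platform annotation gave 1 symbol for 34945 of the remaining 45037, several for 932 and none for 9160. Symbols were checked through gene identifiers, and none needed updating. Probe sets with a mean log2 value of at least 4.86, the median, were tested with limma's moderated test and a variance trend, adjusted by Benjamini-Hochberg over all 22519; partner genes were adjusted over 11595 genes. The procedure was also run on simulated data with independent arrays, no effect of array number and planted changes larger than any measured in the family. That setting cannot tell how the fit treats changes of the family's size or values shared by same-numbered arrays.

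The family, the lists and the rule for named genes were chosen with earlier results of these data known. Named were all family probe sets, Hsf4, 2 partner genes per list with the lowest p, and 3 genes of similar pattern. The other genes named, Xist, Eif2s3y, Kdm5d, Tnnt3, Bfsp1, Bfsp2, Rgs5, Col1a1 and Hspa13, were added after their values were seen. Both groups carry the numbers 1 and 2 in the labels, with no statement that equal numbers share a litter or day. The deviations of same-numbered arrays correlated at 0.43 over probe sets. With only 2 pairs, the numbers were not used as a block, and changes within each number are given. Alternatives were values as deposited, median centring, trimmed mean scaling, other filters and offsets, no variance trend, the block, 1 probe set a gene, and leaving out each array.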

Additional observations from a re-analysis of the deposited data

How the results depend on the processing

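No family probe set passed the threshold under any of the 14 alternatives, and the lowest adjusted p over them was 0.377. Direction was kept in 269 of 297 probe set values and turned in 28, all of changes that did not pass, and the cause was not tested. The other filters, no variance trend, the block and 1 probe set a gene reuse the reported log2 values. Their changes equal the reported ones by construction, so the count kept includes values that could not turn. With values as deposited, where all probe sets shifted by -0.42, the changes were -0.57 for Hspa4 1416146_at, -0.16 for Hspa14 1417095_a_at, -0.46 for Hspa8 1420623_x_at, -0.17 for Hspa9 1431274_a_at, -0.42 for Hspa1b 1452318_a_at, -0.10 for Hspa8 1455789_x_at and -0.20 for Hspa4l 1458385_at. With median centring (shift -0.25) they were -0.40 for Hspa4 1416146_at, -0.29 for Hspa8 1420623_x_at, -0.25 for Hspa1b 1452318_a_at and -0.026 for Hspa4l 1458385_at. Leaving out 1 array, the range was -0.18 to 0.24 for Hspa4 1416146_at, -0.69 to 0.15 for Hspa4 1416147_at, -0.080 to 0.057 for Hspa4 1435194_at, -0.10 to 0.26 for Hspa14 1417095_a_at, -0.66 to 0.50 for Hspa8 1420622_a_at, -0.10 to 0.11 for Hspa8 1420623_x_at, -0.20 to 0.62 for Hspa9 1431274_a_at, -0.47 to 0.20 for Hspa9 1447728_x_at, -0.38 to 0.0049 for Hspa4l 1439093_at, -0.020 to 0.42 for Hspa4l 1458385_at and -0.22 to 0.21 for Hspa1b 1452318_a_at. Of all probe sets, 4 passed in the reported fit, 0 as deposited, 0 with no filter (22 and 1432 at an unadjusted p under 0.05) and 15 with median centring, and 663 without knockout 1, 95 without knockout 2 and 5 without either wild-type array, where the lone array of a group is assumed to vary like the other group. With the array number as a replicate block, 317 passed, none of the family, and the lowest family adjusted p was 0.493. The block leaves 1 residual degree of freedom, and the numbers are known only from the labels, in 2 pairs. The family median was -0.60 as deposited, -0.43 with median centring, -0.11 with an offset of 64 and -0.20 to -0.14 without 1 array. The count of lower probe sets was an addition after the data were seen. It was 24 of 24 as deposited and 21 of 24 with median centring. In these 2 settings the median of all tested probe sets was itself below 0, at -0.42 and -0.25, so most of them were lower too. The family count was 5 of 8 with 1 probe set a gene, since fewer were tested, and 15 to 19 without 1 array.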
